A study of Arabidopsis thaliana with 18 samples.

Results

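The genes described here code for proteins of the cytosolic ribosome, 37 for the small (RPS) and 18 for the large (RPL) subunit. They were chosen as a list of 55 Arabidopsis gene identifiers, without use of measured values, from the 34212 genes that the libraries quantify, and they cover 28 proteins, of which 21 are represented by more than 1 gene copy. RefSeq names 52 of the 55 as ribosomal. The other 3, RPS10A (AT4G25740), RPS11A (AT3G48930) and RPS11B (AT4G30800), it describes by their protein domains. RNA was sequenced from whole 5-day-old wild-type seedlings of ecotype Col-0, which carry no transgene. All were grown in constant darkness on medium without sucrose. A total of 18 libraries fall into 6 groups of 3: dark (no light), and 15, 30, 60, 150 or 360 min of white light (WL). The dark group was sampled at 1 time, so light exposure and elapsed time cannot be told apart.

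Ribosomal proteins assemble with ribosomal RNA into the particles that translate mRNA, and a growing plant cell spends a large part of its transcription and translation on making them. In Arabidopsis most of these proteins are encoded by several genes whose products can replace each other in part. During deetiolation, seedlings that grew on stored reserves open and green their cotyledons, and polysome loading of mRNAs for ribosomal proteins is known to increase on transfer to light. Translation of these mRNAs is regulated through the TOR kinase and its target S6 kinase, which phosphorylates RPS6. The comparison with the dark group asks whether the mRNA levels of these genes changed as etiolated seedlings were moved to light.

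The promoters of these genes have common elements. Windows of 250 bases before to 50 bases after the annotated transcript start were read from the TAIR10.1 assembly and searched on both strands for the telo box AAACCCTA and for site II elements, written TGGGCC or TGGGCT. The motifs share no base order, but neighbouring sites can overlap, and all were counted. A telo box was present in 29 of 55 members (52.7%) and in 6.22% of the windows of all 27443 protein-coding genes. At least 1 site II element was present in 45 (81.8%), against 21.7% of all windows, and both motifs in 24 (43.6%), against 2.2%. A list of 133 other cytosolic ribosomal protein genes had 44.4% and 76.7%, and nuclear genes for plastid ribosomal proteins 13.2% and 50%. The 33 telo boxes clustered at the transcript start, with a median position of -5, and 30 of them lay from 100 bases before the start onwards. Of the 55 members, 5 had neither motif, among them RPS11B, RPS14B (AT3G11510), RPS16A (AT2G09990) and RPS16C (AT5G18380).

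The 120 bases before the transcript start are shown for the copies of RPS3a, RPS4 and RPS6, whose shares are described in detail. They lie at chr3:1329451-1329570 (plus strand) for RPS3aA (AT3G04840), chr4:16548480-16548599 (plus strand) for RPS3aB (AT4G34670), chr2:7546320-7546439 (plus strand) for RPS4A (AT2G17360), chr5:2202244-2202363 (plus strand) for RPS4B (AT5G07090), chr4:15347805-15347924 (minus strand) for RPS6A (AT4G31700) and chr5:3260255-3260374 (minus strand) for RPS6B (AT5G10360), all upstream of the annotated genes in TAIR10.1, and are written 5′ to 3′ in the direction of the gene, with telo boxes and site II elements in capitals:
RPS3aA: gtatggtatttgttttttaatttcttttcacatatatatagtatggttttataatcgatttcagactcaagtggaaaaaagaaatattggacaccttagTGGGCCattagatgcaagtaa
RPS3aB: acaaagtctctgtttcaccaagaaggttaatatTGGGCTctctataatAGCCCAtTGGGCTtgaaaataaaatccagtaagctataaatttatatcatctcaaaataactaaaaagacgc
RPS4A: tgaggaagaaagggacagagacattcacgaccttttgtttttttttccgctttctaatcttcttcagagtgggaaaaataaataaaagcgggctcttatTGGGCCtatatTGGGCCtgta
RPS4B: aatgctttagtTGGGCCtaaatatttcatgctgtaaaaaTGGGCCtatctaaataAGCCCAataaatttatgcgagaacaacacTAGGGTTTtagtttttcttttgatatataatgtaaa
RPS6A: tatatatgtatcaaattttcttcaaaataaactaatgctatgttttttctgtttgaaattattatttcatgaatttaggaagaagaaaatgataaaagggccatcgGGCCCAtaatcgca
RPS6B: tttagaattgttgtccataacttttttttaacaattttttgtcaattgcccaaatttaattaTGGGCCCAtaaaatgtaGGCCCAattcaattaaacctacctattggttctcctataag
Runs of capitals longer than a motif are overlapping motifs. In WL the share of RPS3aB in the summed level of its listed copies went down, and that of RPS4B went up. Both genes carry 3 site II elements in this stretch, and RPS4B also a telo box. RPS3aA carries 1 and RPS4A 2. The search windows reach past the transcript start and hold more. There, RPS3aB had a telo box at position 2 and RPS6B at 24, and site II elements began at 40 in RPS3aA and at 7 in RPS6A. A motif in these letters is a description of the sequence and was not linked to a factor.

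The libraries held between 3577416 and 16156294 counts. Ribosomal RNA of the plastid (23S) took 3.37% to 83.9% of them, which left 1999658 to 10821470 counts for everything else. Replicate 1 at 60 min, replicate 3 at 150 min and replicates 1 and 2 at 360 min had fewer than 2500000 counts outside that RNA. Some results that rest on them are also given without these 4, and the others are given with all 18 libraries only. The 55 genes received 8164 to 62047 counts per library, 0.389% to 0.672% of the counts of nuclear genes. Genes with 0 counts in at least 2 of 3 replicates of any group were left out of the fit. This removed 1 of the 55 and left 54 among 16747 genes tested. Normalized counts are the estimated counts scaled by edgeR's TMM factors to a common library size. As a check of the labels, normalized counts of CHS, the first enzyme of flavonoid synthesis, were 3.66, 6.12 and 9.07 in the dark and 590.3, 779.7 and 1366 after 360 min. PORA, which makes chlorophyllide in etiolated tissue, went from 536, 952 and 469.7 to 27.7, 35.3 and 10.1. HY5, a light-signalling transcription factor, and ELIP2, an early light-induced protein, were at 3.71 and 7.34 on the log2 scale at 360 min, and all 4 controls were called over the time course. CHS and PORA were called changed at 360 min (log2 fold change 7.25 ± 0.58 (SE), edgeR adjusted p = 3.36e-08 and log2 fold change -4.90 ± 0.66 (SE), edgeR adjusted p = 2.92e-05).

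In the dark and in WL, these were among the more abundant mRNAs of the seedling. On the scale of normalized counts per kb of transcript, which allows genes to be compared, the median of the 55 mean levels was 547. The median of all tested genes was 70.9, and 28 of the 55 lay above the 90th percentile of all tested genes (523). Among the highest mean levels were those of RPL19A (AT1G02780) (2567 normalized counts per kb), a large-subunit protein that reaches across to the small subunit, and RPS19A (AT3G02080) (1914), which is needed for maturation of the small subunit in yeast and human cells. Their order did not hold beyond the spread between dark libraries. In the dark, RPL19A stood at 1953 ± 684 (SD, n = 3) and RPS19A at 1657 ± 842 (SD, n = 3) normalized counts per kb. Among the lowest were the minor copies RPS11B (13.4) and RPS2D (AT3G57490) (13.0).

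No member was called changed in any comparison (edgeR quasi-likelihood test, Benjamini-Hochberg adjusted p below 0.01). After 15 min, 0 of 54 were called, against 0% of all tested genes. After 30 min, 0 were called higher and 0 lower, against 0.0836% and 0% of all tested genes. After 60 min, 0 were called higher and 0 lower, against 0.8% and 0.0478%. After 150 min, 0 were called higher and 0 lower, against 2.2% and 0.561%. After 360 min, 0 were called higher and 0 lower, against 3.47% and 0.806%. Between 15 and 360 min, 0 were called higher and 0 lower, against 3.57% and 0.675%. Over all 5 light groups together, 0 members were called, against 5.02% of all tested genes. DESeq2 also called 0 members in each of these comparisons.

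At an unadjusted p below 0.05, edgeR gave 0 members after 15 and after 30 min, where the background was 0.287% higher and 0.597% lower, and 1.52% higher and 0.973% lower. After 60 min, 1 member was higher and 1 lower (background 6.68% and 4.54%). After 150 min, 4 were higher and 0 lower (background 8.94% and 5.8%). After 360 min, 5 were higher and 3 lower (background 12.7% and 8.65%). Between 15 and 360 min, 6 were higher and 1 lower (background 13.1% and 8.54%). Over the time course, 1 member passed (background 17.4%). DESeq2 gave 1, 0, 3, 4 and 10 members at 15, 30, 60, 150 and 360 min. Without the 4 libraries with few counts, edgeR gave 1, 0, 2, 2 and 0. In each edgeR comparison with all 18 libraries the members' share was at or below that of all tested genes.

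Against dark, the members' fold changes centred on a median log2 value of 0.00 after 15 min, 0.08 after 30 min, -0.06 after 60 min, 0.21 after 150 min and -0.02 after 360 min. Over all tested genes it was -0.01, -0.02, 0.02, -0.03 and -0.03. The summed normalized count of the members ranged from 26811 to 37206 in the dark, 36931 to 40747 after 150 min and 32344 to 39723 after 360 min. The dark and 150 min ranges overlapped only at their ends, and the dark and 360 min ranges overlapped. With whole seedlings, fewer cells of a type and less RNA per cell cannot be told apart. The median at 150 min was the largest of the 5. Leaving out replicate 2 at 150 min lowered it to 0.12, leaving out replicate 3 of the dark group raised it to 0.31, and scaling by library totals made it -0.22, where the median of all genes moved to -0.52. Without the 4 libraries with few counts, the members' median was 0.22 at 150 min and 0.05 at 360 min, where only replicate 3 was left.

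These tests bound the changes only in part. The median SE of a member's log2 fold change was 0.40, against 0.61 to 0.63 for all tested genes. After 15 min, the 95% interval lay within a 2-fold change in either direction (log2 of -1 to 1) for 29 of 54 members. After 30, 60, 150 and 360 min this held for 22, 14, 16 and 10. The interval excluded 0 for 0, 0, 2, 4 and 8 members, with no adjustment for the number of genes. For the members outside the first count, the interval reached beyond 2-fold.

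**Figure D1:**
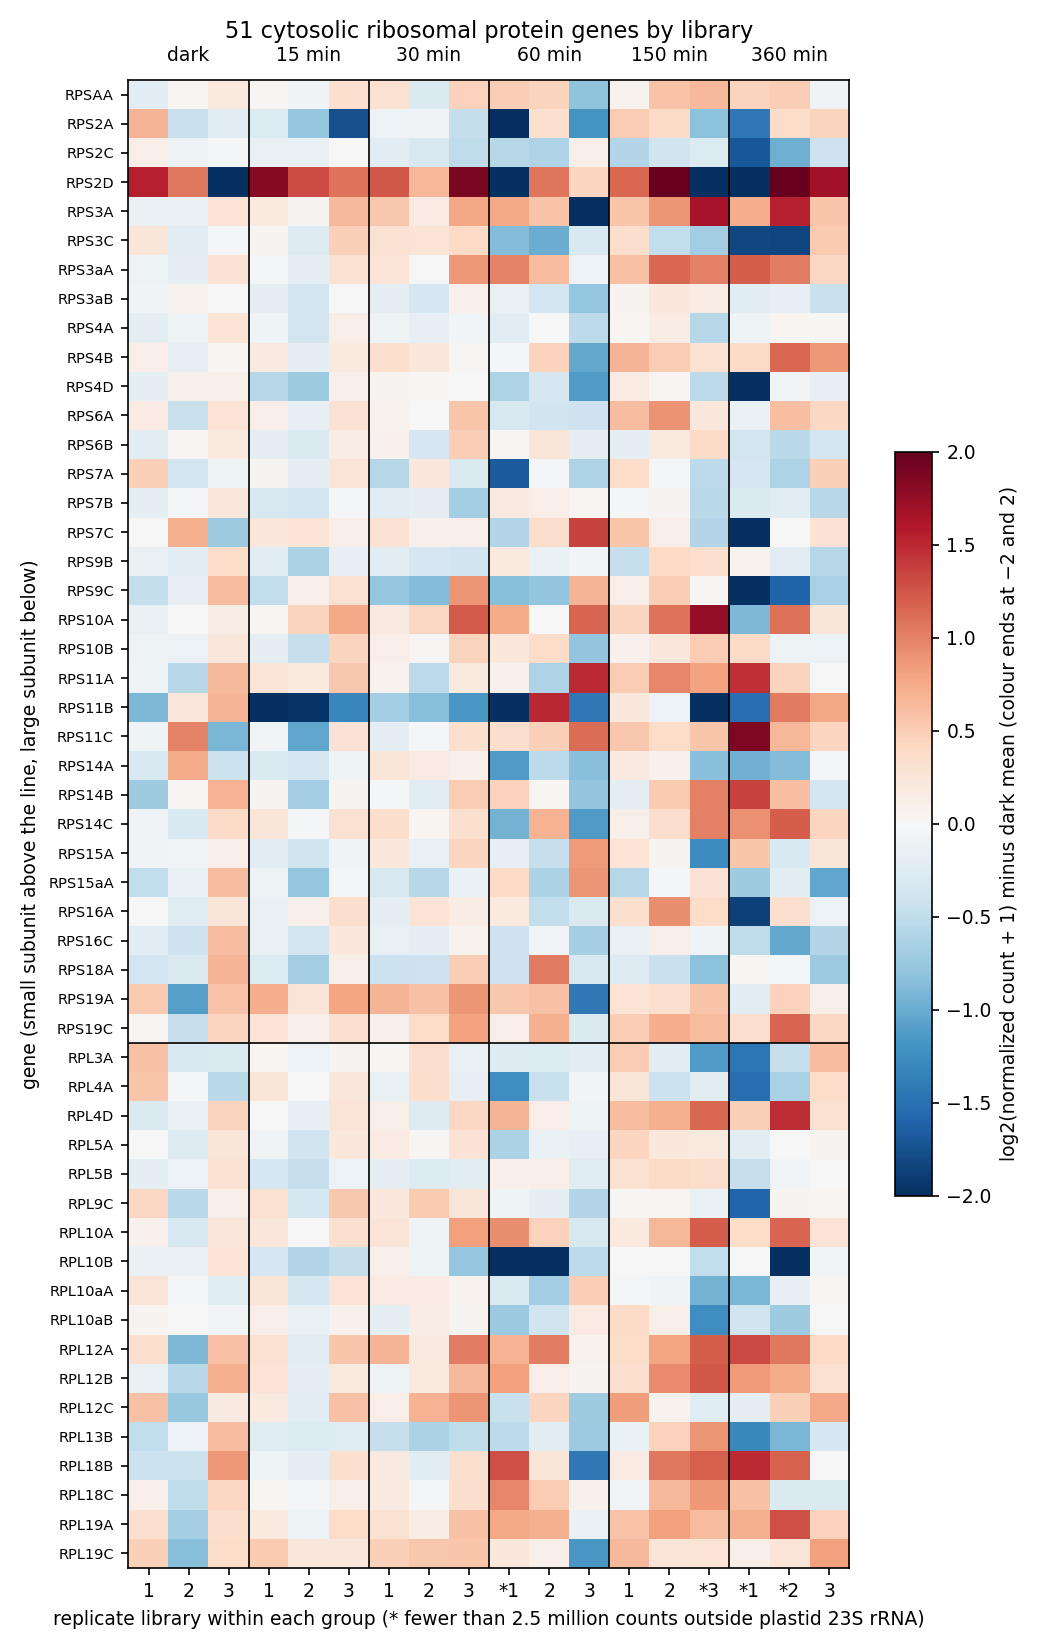
Each cell of the map is 1 of 51 of the genes (rows, small subunit above the line and large subunit below) in 1 of 18 libraries (columns, by min of WL), coloured by log2(normalized count + 1) minus the mean of the 3 dark libraries, with colours ending at -2 and 2 and a star on the 4 libraries with fewer than 2500000 counts outside plastid 23S rRNA. The strongest colours stand in minor copies such as RPS2D and RPS11B and in single libraries such as replicate 1 at 360 min, and no block of rows changes colour together from dark to 360 min.

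Once minor copies are set aside, the lowest value among small-subunit genes after 360 min was that of RPS2C (AT2G41840). RPS2C is the main copy, among those listed here, of a protein at the mRNA entry site. Its normalized counts were 1365, 1166 and 1209.7 in the dark, 1126, 1119 and 1253 after 15 min, 1061, 1009 and 874 after 30 min, 841, 812 and 1342 after 60 min, 826, 944 and 1035 after 150 min and 384, 632 and 929 after 360 min. All 3 libraries at 150 min and all 3 at 360 min lay below the 3 dark libraries (log2 fold change at 360 min -0.94 ± 0.33 (SE, n = 3 and 3), 95% interval -1.63 to -0.24, edgeR adjusted p = 0.0923). Without the 4 libraries with few counts, 1 library of the 360 min group remained, at 929. RPS9C (AT5G39850), a minor copy of a protein that acts in decoding accuracy in yeast, had the lowest fold change of all members. Its normalized counts were 32.2, 40.1 and 70.7 in the dark and 0, 14.1 and 28.6 after 360 min (log2 fold change -1.56 ± 0.83 (SE, n = 3 and 3), 95% interval -3.28 to 0.17, edgeR adjusted p = 0.291). The groups did not overlap, but the highest value at 360 min differed from the lowest in the dark by less than the spread within the dark group.

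At the upper end stood RPS3A (AT2G31610), the main copy, among those listed here, of a protein of the mRNA entry channel. Its normalized counts were 755, 754 and 1008 in the dark, 957, 859 and 1305 after 15 min, 1207, 928 and 1416 after 30 min, 1412, 1229 and 114 after 60 min, 1223, 1534 and 2621 after 150 min and 1371, 2441 and 1222 after 360 min. All libraries at 150 and at 360 min lay above the dark libraries (log2 fold change at 360 min 1.00 ± 0.55 (SE, n = 3 and 3), 95% interval -0.13 to 2.13, edgeR adjusted p = 0.303). Replicate 3 at 60 min lay far below every other. That library had the lowest total of counts (3577416) but only 3.37% plastid 23S rRNA, and its 3456704 counts outside that RNA were not the fewest. The second listed copy, RPS3C (AT5G35530), stood at 633, 460.1 and 522 in the dark and 151, 148 and 768 after 360 min. Replicates 1 and 2 at 360 min were below all dark libraries, and replicate 3 above them. Without replicate 3 at 360 min, RPS3C was the 1 member called, lower at 360 min (log2 fold change -1.85, edgeR adjusted p = 0.00412). That call rests on the 2 libraries of the group with few counts, and without the 4 such libraries the log2 fold change was 0.55. Its interval in the full fit was -0.57, 95% interval -1.56 to 0.42. RPS2D, at 16.8, 11.6 and 0 in the dark and 0, 38.8 and 18.4 after 360 min, had the second highest fold change (0.95, 95% interval -1.66 to 3.55), at counts that overlapped between the groups.

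RPS3aA, a protein of the platform near the mRNA exit, was among the members at an unadjusted p below 0.05 at both late times. Its log2 fold changes were 0.92, 95% interval 0.18 to 1.66, at 150 min, and 0.90, 95% interval 0.16 to 1.64, at 360 min (edgeR adjusted p = 0.187 and 0.135). RPS4B was at 0.83, 95% interval 0.11 to 1.56, at 360 min. RPS9C was the 1 member of 54 with a log2 fold change beyond 1 in either direction at 360 min. For RPS6A and RPS6B, the 2 copies of the S6 kinase substrate, the values at 360 min were 0.30, 95% interval -0.38 to 0.97 and -0.43, 95% interval -1.08 to 0.21. RPS16C was at -0.76, 95% interval -1.45 to -0.06, with an edgeR adjusted p of 0.188. At 150 min, RPS10A, a minor copy, had 91.1, 144 and 228 normalized counts against 60.1, 67.3 and 74.4 in the dark (log2 fold change 1.19 ± 0.54 (SE, n = 3 and 3), 95% interval 0.07 to 2.30, edgeR adjusted p = 0.293), and at 360 min it had 35.7, 145 and 79.7, which overlapped the dark group. At 60 min, RPS14A (AT2G36160), a protein of the platform, had 161, 246 and 197 against 286, 592 and 263 in the dark (log2 fold change -0.91 ± 0.39 (SE, n = 3 and 3), 95% interval -1.73 to -0.10, edgeR adjusted p = 0.367). RPS18A (AT1G22780), whose loss gives the pointed first leaf phenotype, was at -0.30, 95% interval -1.23 to 0.63, at 360 min.

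Of the 18 large-subunit genes, 9 had a positive and 9 a negative log2 fold change at 360 min, from -0.85 to 0.88. The lowest was RPL13B (AT3G49010), with 316, 411 and 680.1 normalized counts in the dark, 405, 611 and 822 after 150 min and 182, 236 and 352 after 360 min. It had the smallest p over the time course of any member (edgeR adjusted p = 0.182), and its dark and 360 min libraries overlapped. RPL19A had 2071, 1039.9 and 2122 in the dark and 2722, 4064 and 2282 after 360 min (log2 fold change 0.79 ± 0.36 (SE, n = 3 and 3), 95% interval 0.04 to 1.55, edgeR adjusted p = 0.207). All 3 libraries at 360 min lay above the dark libraries, and the low value of dark replicate 2 widened the dark group. The 3 genes above it on the log2 scale were RPL18B (AT3G05590), at 0.88, RPL12A (AT2G37190), at 0.84, and RPL4D (AT5G02870), at 0.82. RPL12 forms the base of the stalk to which translation factors bind, and RPL4 lines the tunnel through which the new protein leaves. RPL4D had 402, 447 and 669 normalized counts in the dark, 761, 809 and 1090.1 after 150 min and 689, 1376 and 609 after 360 min. All 3 libraries at 150 min were above the dark group, and replicate 3 at 360 min fell within it (log2 fold change 0.81 ± 0.36 (SE, n = 3 and 3), 95% interval 0.06 to 1.56, edgeR adjusted p = 0.287, at 150 min). RPL12B (AT3G53430) was at 0.79, 95% interval 0.02 to 1.56, at 150 min. At 360 min, RPL5A (AT3G25520) and RPL5B (AT5G39740), which bind 5S ribosomal RNA, were at -0.06, 95% interval -0.68 to 0.56, and -0.17, 95% interval -0.77 to 0.44. RPL10A (AT1G14320), a protein that joins the large subunit late in its assembly, was at 0.64, 95% interval -0.16 to 1.44, at 360 min.

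**Figure D2:**
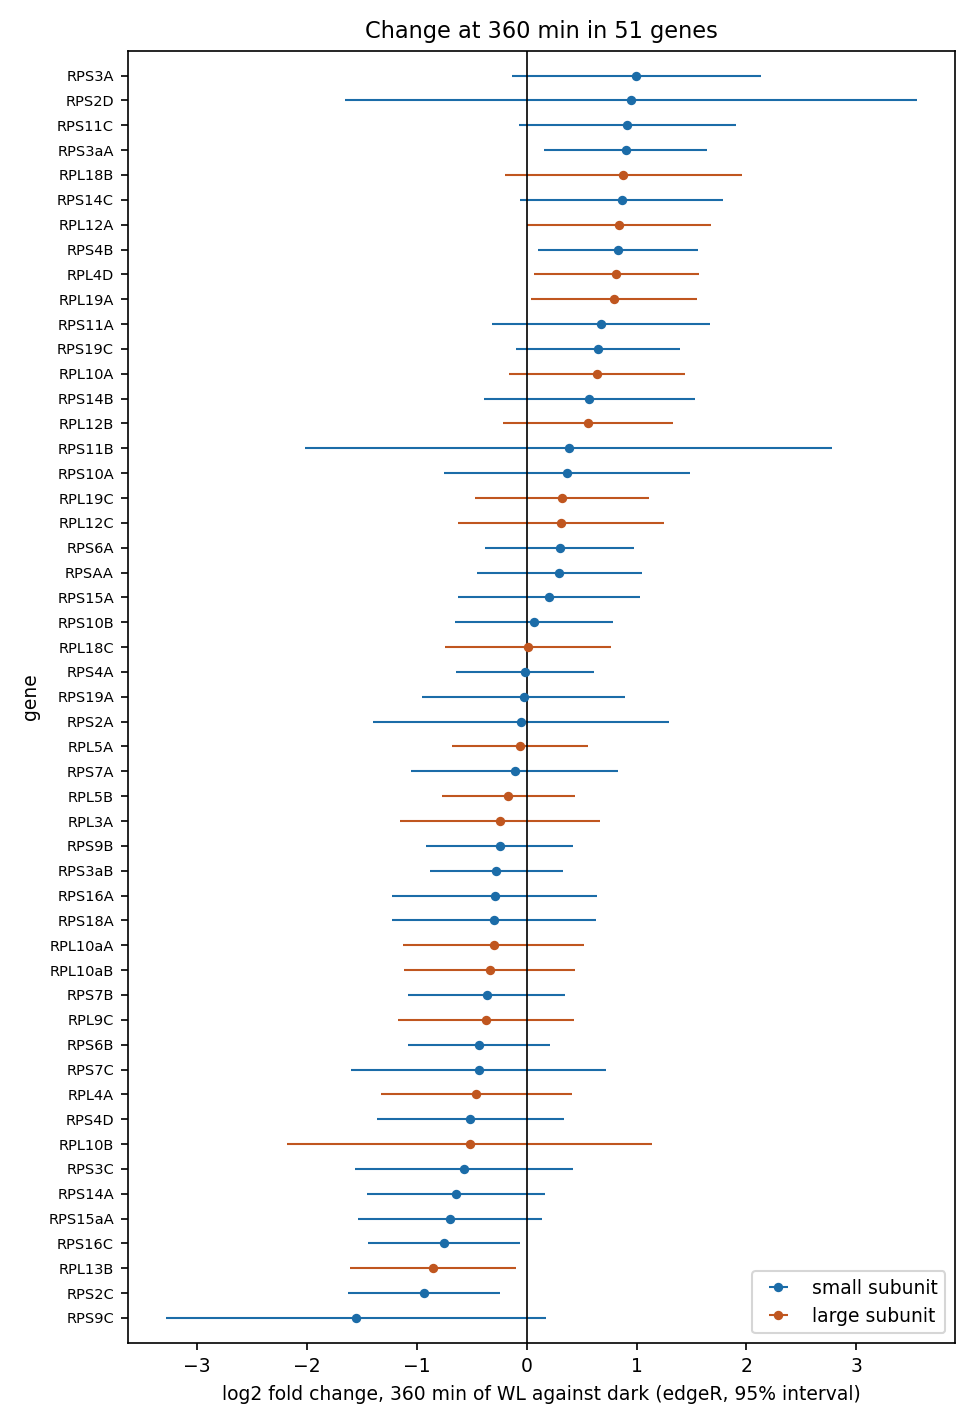
Points are the log2 fold change after 360 min of WL against dark for 51 of the genes tested and bars the 95% interval from edgeR, ordered from RPS9C (-1.56) to RPS3A (1.00), with small-subunit genes in blue and large-subunit genes in orange. The 2 subunits are mixed along the order, and 7 of the 51 intervals leave out 0.

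Complete separation of the 3 light from the 3 dark libraries was counted for each member as well. After 15 min, 0 members lay above and 2 below dark, where 3.91% and 3.83% of all tested genes did. After 30 min the counts were 3 and 3 (5.97% and 5.38% of all tested genes). After 60 min they were 1 and 5 (6.89% and 7.49%). After 150 min they were 9 and 1 (12.5% and 10.9%). After 360 min they were 6 and 6 (10.5% and 11.3%). The counts were not tested against the background shares. With 3 against 3 libraries the exact permutation p for a single gene cannot go below 0.1.

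Copies of the same protein were then compared with each other, since a ratio of 2 genes in a library does not depend on how libraries are scaled. For each of the 21 proteins with more than 1 member, the log2 ratio of the levels of the 2 most abundant copies, ranked over all 18 libraries, was compared between the 6 early libraries (dark and 15 min) and the 6 late ones (150 and 360 min) by an exact permutation test, with no adjustment for the 21 pairs. The smallest p this test can give is 0.00216. The dominant copy in the dark was dominant in all 18 libraries for 10 of the 21 proteins. In 5 proteins it made up more than 90% of the summed level, among them RPS2C, RPS9B (AT5G15200), RPS10B (AT5G41520) and RPL10A. The unadjusted p was below 0.05 for 7 pairs, and for 4 pairs without the 4 libraries with few counts. Ranking the copies by their dark level changed 1 of the 21 pairs, that of RPS4, and left 6 below 0.05.

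In RPS3a the copy with the larger level differed between the early and most of the late libraries. The log2 ratio of RPS3aA to RPS3aB was -0.61, -0.84 and -0.28 in the dark, -0.40, -0.37 and -0.27 after 15 min, -0.13, -0.24 and 0.19 after 30 min, 0.58, 0.45 and 0.08 after 60 min, -0.05, 0.36 and 0.30 after 150 min and 0.85, 0.61 and 0.29 after 360 min. RPS3aB was the larger in every dark and 15 min library, RPS3aA in 5 of 6 late libraries, and the early and late libraries did not overlap. The mean went from -0.46 ± 0.22 (SD, n = 6) to 0.39 ± 0.31 (SD, n = 6), a difference of 0.85 (exact two-sided permutation p = 0.00216), and without the libraries with few counts the difference was 0.66 (exact permutation p = 0.0119, 6 against 3). RPS3aA made up 40.2% ± 4.69 (SD, n = 3) of the summed level of both copies in the dark and 59.9% ± 4.66 (SD, n = 3) after 360 min. RPS3aA normalized counts were 507, 478 and 667 in the dark, 814, 1213 and 1099.9 after 150 min and 1256, 1104 and 725 after 360 min. All 6 late libraries were above the dark group. Those of RPS3aB were 836, 926 and 878 in the dark, 916, 1022 and 969 after 150 min and 757, 783 and 643 after 360 min. Of the late groups only that of 360 min lay below dark for RPS3aB, and at 150 min its mean was above that of the dark group.

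RPS4 has 3 copies here, and the pair depended on how it was chosen. In the dark RPS4D (AT5G58420), at 33.0% ± 2.85 (SD, n = 3) of the summed level, ranked above RPS4B, at 24.5% ± 3.72 (SD, n = 3), so that RPS4B was among the 2 most abundant copies over all 18 libraries but not in the dark. The ratio of RPS4A to RPS4B is therefore given as a description, with no test. On the log2 scale it was 0.49, 0.87 and 1.06 in the dark, 0.54, 0.64 and 0.75 after 15 min, 0.38, 0.42 and 0.73 after 30 min, 0.65, 0.35 and 1.31 after 60 min, 0.17, 0.45 and -0.07 after 150 min and 0.33, -0.32 and -0.03 after 360 min. The late libraries lay below all early ones. RPS4A, the largest copy in the dark and at 360 min, made up 42.6% ± 3.04 (SD, n = 3) in the dark and 40.3% ± 8.83 (SD, n = 3) after 360 min, while RPS4B stood at 39.9% ± 1.98 (SD, n = 3) and RPS4D at 19.8% ± 8.70 (SD, n = 3) after 360 min. Normalized counts of RPS4B were 453, 367 and 419 in the dark, 657, 586 and 509 after 150 min and 539, 917 and 750.3 after 360 min, all late libraries above the dark group. For RPS4A to RPS4D, the 2 most abundant copies in the dark, the mean log2 ratio went from 0.51 ± 0.24 (SD, n = 6) to 0.74 ± 0.81 (SD, n = 6), exact two-sided permutation p = 0.79.

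The ratio of the RPS6 copies gave a p just above 0.05. The log2 ratio of RPS6B to RPS6A was 0.34, 1.17 and 0.62 in the dark, 0.38, 0.58 and 0.57 after 15 min, 0.74, 0.38 and 0.65 after 30 min, 1.06, 1.34 and 0.93 after 60 min, -0.11, 0.00 and 0.88 after 150 min and 0.47, -0.43 and -0.08 after 360 min. RPS6B was the larger in every library up to 60 min, while after 150 and 360 min it was between -0.43 and 0.00 in 4 of 6 libraries. The mean went from 0.61 ± 0.30 (SD, n = 6) to 0.12 ± 0.47 (SD, n = 6), a difference of -0.49 (exact two-sided permutation p = 0.052). Without the libraries with few counts the difference was -0.67 (exact permutation p = 0.0119, 6 against 3). RPS6A had 553, 364 and 598 normalized counts in the dark, 759, 923 and 571 after 150 min and 452, 751 and 658 after 360 min, and both late groups overlapped the dark group. RPS6B had 754, 881 and 992 in the dark, 759, 994 and 1133 after 150 min and 673, 599.8 and 671 after 360 min. It was below the dark group at 360 min, and at 150 min its mean was above that of the dark group.

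For RPS2, the log2 ratio of RPS2C to RPS2A (AT1G58380) was 3.33, 4.24 and 4.06 in the dark and between 2.52 and 3.64 after 360 min. The mean went from 4.31 ± 0.78 (SD, n = 6) to 3.24 ± 0.69 (SD, n = 6), a difference of -1.06 (exact two-sided permutation p = 0.0325). Without the libraries with few counts the difference was -1.35 (exact permutation p = 0.0238, 6 against 3). When 1 library at a time was left out, p was 0.05 or above in 6 of 12 cases, with a difference of -1.30 to -0.79. RPS2A shares 38.3% of its 31-base words with AT1G58684, so that its level depends on how reads were divided between them. The other pairs below 0.05 were RPL4A (AT3G09630) to RPL4D (-1.22, exact permutation p = 0.0173), RPL18B to RPL18C (AT5G27850) (0.62, exact permutation p = 0.0216), RPS19A to RPS19C (AT5G61170) (-0.55, exact permutation p = 0.026) and RPS3A to RPS3C (1.55, exact permutation p = 0.0368). The RPL18 pair lost its p below 0.05 in 3 of 12 cases when 1 library was left out, and RPS19 and RPS3 in 1 of 12 each. Without the libraries with few counts, the 4 differences were -0.55, 0.32, -0.49 and 0.43, and none of the 4 stayed below 0.05. In replicate 3 at 360 min, the 1 deep library of that group, the RPL4A to RPL4D log2 ratio was 0.87, within the dark range, and in replicates 1 and 2 it was -1.21 and -1.33. Plastid 23S rRNA took 83.9%, 78.6% and 24.0% of these 3 libraries. The part of depth in these ratios was not tested beyond leaving the libraries out.

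The remaining pairs had p above 0.05. The difference was smallest for RPL12A to RPL12B (0.05, exact permutation p = 0.732), RPL10aB (AT2G27530) to RPL10aA (AT1G08360) (0.06, exact permutation p = 0.753) and RPL5A to RPL5B (-0.09, exact permutation p = 0.381). A p above 0.05 does not show that these ratios were constant. In the pairs named here, the 6 early and 6 late libraries had SDs of 0.16 to 0.42. Other remaining pairs had wider SDs, up to 3.68 in the late libraries of RPS9.

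**Figure D3:**
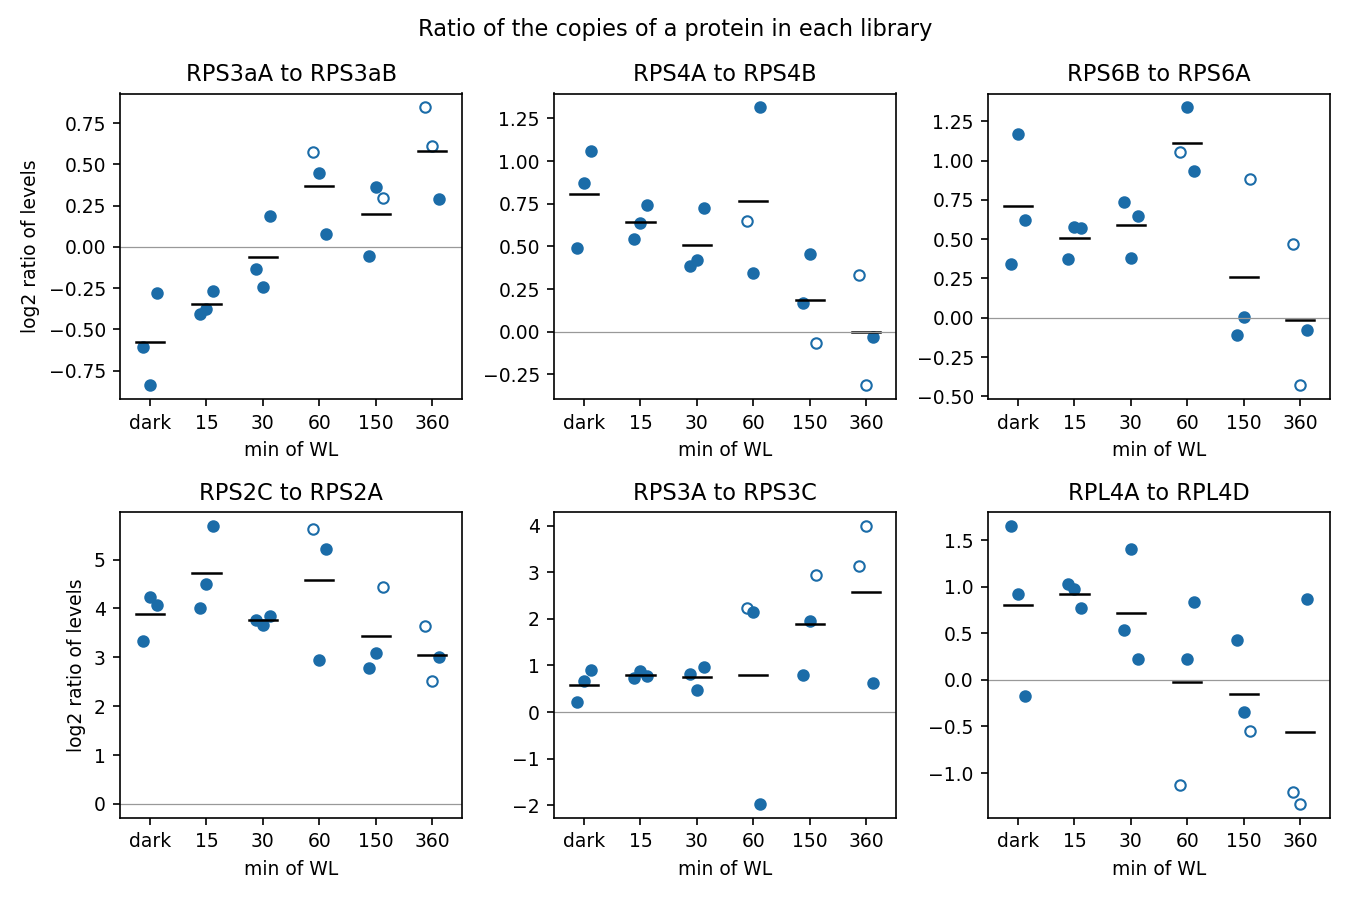
Each point is the log2 ratio of the levels of 2 copies in 1 library, by min of WL, for 6 proteins. Bars are group means (n = 3) and open circles the 4 libraries with fewer than 2500000 counts outside plastid 23S rRNA. RPS3aA to RPS3aB lies between -0.84 and -0.27 in the dark and 15 min libraries and between -0.05 and 0.85 in the 150 and 360 min libraries, whereas in RPS3 and RPL4 the open circles at 360 min stand apart from the filled one.

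The copies are similar enough in sequence that reads could be assigned to the wrong one, so the RefSeq sequences were compared. Coding sequences of the 21 pairs were 77.1% to 98.2% identical, with a median of 87.0%. The authors' quantification matches reads through words of 31 bases, and 17 of the 55 genes shared no such word with another gene, the median share being 1.58%. Shares above 10% were found for 6 genes: RPL9C (AT1G33140) (59.9%), RPS2A (38.3%), RPS16A (23.7%), RPS16C (20.4%), RPL18C (16.8%) and RPS15aA (AT1G07770) (10.2%). Their levels depend more on how reads were divided between genes. The share counts words in the RefSeq sequences and does not measure the error of a level. RPS3aA and RPS3aB shared 0.43% and 0.413%, RPS6A and RPS6B 0.6% and 0.591%, and RPS4A and RPS4B 3.88% and 5.02%.

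A list of 133 other cytosolic ribosomal protein genes was compared, of which 128 were tested. The list need not hold every such gene, and RefSeq names 124 of the 133 as ribosomal. Their median log2 fold change against dark was -0.01, 0.17, 0.24, 0.54 and 0.50 after 15, 30, 60, 150 and 360 min, beside 0.00, 0.08, -0.06, 0.21 and -0.02 for the 55 genes described here. At 360 min 1 of the 128 was called higher, RPP1B, an acidic stalk protein (log2 fold change 2.30 ± 0.48 (SE), edgeR adjusted p = 0.0032), and 0 lower. By library, the median difference between the 2 lists at 360 min was 0.86 and 0.72 in replicates 1 and 2 and 0.00 in replicate 3, the deep library. At 150 min it was 0.00, 0.35 and 0.56. Plastid 23S rRNA took 83.9%, 78.6% and 24.0% of the 360 min libraries and 40.9%, 67.9% and 83.0% of the 150 min libraries, and its part in the difference was not tested. The 2 lists also differ in length. The median effective transcript length was 886 bases in the 55 genes and 614 in the others. Across both lists combined, the median at 360 min was, on the log2 scale, 0.57 among the 61 shortest, 0.36 among the 60 of middle length and 0.11 among the 61 longest. These sets held 1, 18 and 35 of the members, so length and list are mixed in them. Among the others alone, the 17 genes at or above the members' median length had a median of 0.42 and the 111 shorter ones 0.54. Over all tested genes split by length, the median at 360 min was 0.13, -0.08 and -0.14. The part of length in the difference between the lists was not tested. Split by promoter motif, the 28 tested members with a telo box had a median of -0.14 at 360 min and the 26 without one 0.25. This difference was not tested.

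Nuclear genes for proteins of the plastid ribosome behaved otherwise. Of 38 tested, 4 were called higher at 150 min and 19 at 360 min, 24 over the time course and 0 lower (edgeR adjusted p below 0.01). Their median log2 fold change was 1.00 at 150 min and 1.68 at 360 min. PSRP3, a plastid-specific subunit, had 62.3, 116 and 96.1 normalized counts in the dark and 574, 1475 and 949.6 after 360 min (log2 fold change 3.45 ± 0.49 (SE), edgeR adjusted p = 5.38e-05). PSRP6 and PRPL27 followed (log2 fold change 2.97 ± 0.41 (SE), edgeR adjusted p = 3.63e-05, and log2 fold change 2.90 ± 0.44 (SE), edgeR adjusted p = 1.06e-04). The median of the list at 360 min was 1.51, 2.02 and 1.87 in the 3 libraries, so that the deep library did not stand apart here.

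**Figure D4:**
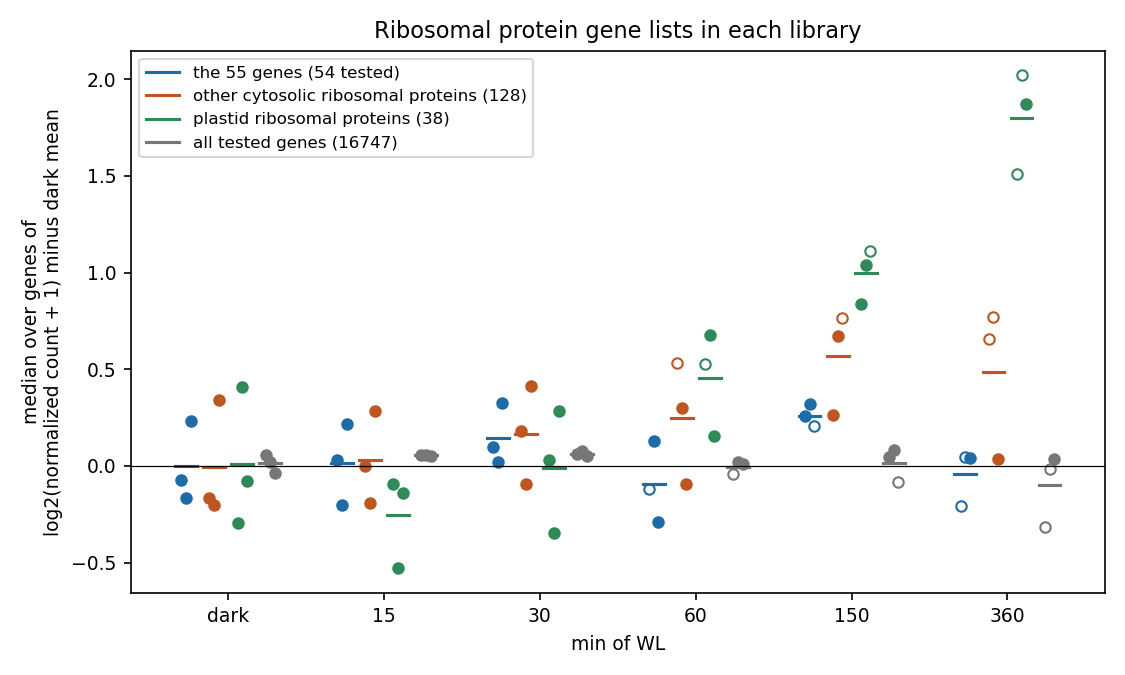
Each point is 1 library, by min of WL, and shows the median over the genes of a list of log2(normalized count + 1) minus the mean of the dark libraries. Bars are group means (n = 3) and open circles the 4 libraries with fewer than 2500000 counts outside plastid 23S rRNA. The median of the 54 tested members stays between -0.29 and 0.32 in every library, though single genes go beyond it. The median of the plastid ribosomal protein genes reaches 1.51 to 2.02 at 360 min.

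Other genes of the same machinery were examined as lists. Of 16 genes for ribosome biogenesis, which process and assemble pre-ribosomes, 0 were called by edgeR at any time, and 10 were higher at an unadjusted p below 0.05 at 360 min. Their median log2 fold change at 360 min was 1.81. PPAN, chosen after its values were seen, had 60.8, 98.6 and 94.3 normalized counts in the dark and 503, 462 and 103 after 360 min, and replicate 3 was the lowest of the 3. Of 19 translation initiation and elongation factors, 0 were called at any time, and at 360 min an unadjusted p below 0.05 was found for eEF1Bb1 (log2 fold change 2.10) and eEF1Bb2 (-0.78), chosen after their values were seen. Of 5 genes of the TOR and S6 kinase pathway, S6K1 was called higher at 150 min (log2 fold change 1.68 ± 0.36 (SE), edgeR adjusted p = 0.00566), and at 360 min it had an edgeR adjusted p of 0.0193. Its normalized counts were 626, 701 and 733 in the dark and 1746, 2293 and 2565 after 150 min. S6K2, TOR, RAPTOR1B and LST8-1 were not called.

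Markers of dividing cells, in which ribosomal protein genes are most active, had summed normalized counts over 10 genes of 393 to 626 in the dark, 409 to 641 after 15 min, 518 to 569 after 30 min, 272 to 445 after 60 min, 313 to 577 after 150 min and 389 to 483 after 360 min. The dark range overlapped that of every light group, while the 30 min range lay above those of 60 and 360 min. Of the 8 tested, edgeR called 0 against dark, with 0 at an unadjusted p below 0.05. In every group all 10 had counts in at least 1 library. Of 4 root and 3 shoot apex markers 1 each passed the filter. Summed over the list, the root markers stood at 389.9 to 1050 normalized counts in the dark and 886 to 1014 after 360 min, and the shoot apex markers at 29.0 to 51.3 and 0 to 80.3. CASP1 and STM were the ones tested, and the part of any change in cell makeup in the members' values was not tested.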

How the data were processed

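Polyadenylated RNA from 18 libraries of etiolated Col-0 seedlings was sequenced by the authors as single reads. Per the labels, WL was given at a higher fluence rate and libraries were prepared by another protocol than the study's methods state, and whether strand was used in counting is not given in the sources used here. The study's methods call the 3 samples of a group biological replicates. The authors assigned reads to a reference transcriptome with kallisto, which works through words of 31 bases. The deposited transcript tables hold estimated counts (fractional), TPM (over all transcripts, plastid ribosomal RNA included) and the effective length of each transcript. A deposited gene table holds a normalized signal, gene counts divided by 1 size factor per library, and was used only as an alternative. From it whole reads were recovered for 100% of values within 0.01 of a whole number.

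Transcripts were summed to genes from TPM scaled by average length and library size (the lengthScaledTPM method), and rounded. Genes with 0 in 2 or more of 3 replicates of any group were left out, and 16747 remained. edgeR 4.0.16 (R 4.3.3, limma 3.58.1) fitted all 18 libraries together with TMM normalization and a quasi-likelihood test, and a gene was called at a Benjamini-Hochberg adjusted p below 0.01. The biological coefficient of variation was 0.54. DESeq2 1.42.0, other filters, scalings and counts, a replicate block and leaving out each library were alternatives. Copy ratios used log2(level + 0.1), where the level is the normalized count per kb of effective length, and exact two-sided permutation tests. The scripts were tested on simulated data. Intervals are the model's 95% intervals.

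The members were listed by gene family without use of measured values. Earlier results of these data were known, however, when the members and the other lists were chosen. Values in full are given for the 3 members with the highest and the 3 with the lowest fold change at 360 min, their other copies, RPS6, and the 3 highest and 3 lowest levels. In the other lists, up to 3 called genes with the largest change are named. Members at an unadjusted p below 0.05 and those of the copy ratios were added after their values were seen. Some members and copy pairs that this rule would name are not reported here, though they stay in the counts and medians. Promoter windows and coding sequences come from RefSeq on TAIR10.1, and protein sequences were not used here. Over all tested genes, same-numbered libraries did not deviate together (median r = -0.05 over 45 pairs, against 0.02 over 90 pairs with other numbers). The numbers were therefore not taken as pairs.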

Additional observations from a re-analysis of the deposited data

Results flagged for a closer look

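Single libraries were flagged by the ratio of their gap to the whole range. The limit used is passed in about 1 of 20 sets of 6 values drawn from 1 normal distribution. The sets here pool 2 groups each and share libraries, so that rate is not known to hold for them. By this limit, single libraries stood apart from the other 5 in 8 of 42 sets of copy ratios (21 proteins, 6 early and 6 late libraries each). Of these, 4 were replicate 1 at 360 min, the library with 83.9% plastid 23S rRNA: the log2 ratio was -2.69 for RPS7, 13.0 for RPS9, where RPS9C had 0 counts, 4.72 for RPS10 and 4.36 for RPS16, against a nearest other value of -0.11, 5.33, 3.08 and 2.53. The other 4 were dark libraries. Replicate 1 had 0.21 for RPS3, replicate 2 had 1.17 for RPS6 and 1.33 for RPS19, and replicate 3 had -1.01 for RPS7. The part of library depth in these values was not tested.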

How the results depend on the processing

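No member was called under any alternative, except that without replicate 3 at 360 min RPS3C was called lower against dark and against 15 min, so these counts ranged from 0 to 1. Scaling by library totals called only 20 of 16747 genes over the time course and 0 at 360 min. With so few calls among all genes, that alternative says little about the members. Leaving out 1 library at a time moved the median member log2 fold change from 0.021 to 0.25 at 30 min, from 0.12 to 0.31 at 150 min and from -0.17 to 0.12 at 360 min. Scaling by library totals gave medians of 0.39, -0.22 and -0.51 at these times, while the median of all genes moved to 0.25, -0.52 and -0.65. It also turned RPS6A to -0.21.

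With the replicate number as a block, 0 members were called and the medians were 0.01, 0.10, -0.11, 0.25 and -0.01 at 15, 30, 60, 150 and 360 min. Calls over the time course among all genes were 679 in place of 840. The block turned RPS19A to 0.011 and RPS2A to 0.00015, both near 0. Over all tested genes, the numbers were not found to pair the libraries. For the members, the median difference from dark was highest in replicate 3 and lowest in replicate 2 in the dark, 15 and 30 min groups. At 60 and 150 min replicate 3 was the lowest. Whether the members follow the replicate number was not tested.

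Leaving out the 4 libraries with few counts, chosen after seeing the data, gave 4 copy pairs below 0.05 in place of 7. It turned the log2 fold changes at 360 min of RPS2A to 0.41 and RPS3C to 0.55. It turned the copy ratio differences to 0.27 for RPS7C to RPS7B, -0.043 for RPS9B to RPS9C, -0.12 for RPS14B to RPS14A and -0.078 for RPL12A to RPL12B. Choosing the pairs by their dark level, also added after seeing the data, gave 6. The number of copy pairs below 0.05 was 5 to 10 as 1 library was left out. The cause of these changes was not tested. Signs also changed on leaving out 1 library for RPS19A (-0.40 to 0.22), RPS2A (-0.35 to 0.37) and the ratios of RPL10aB to RPL10aA (-0.035 to 0.18), RPL12A to RPL12B (-0.027 to 0.14) and RPS7C to RPS7B (-0.63 to 0.11). The depth of the 360 min group, where 1 of 3 libraries had more than 2500000 counts outside plastid 23S rRNA, limits what that group can show.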
